A study of Anguilla anguilla with 24 samples.

Results

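The developmental transcription factor families of the European eel (Anguilla anguilla) were followed in the brain and liver of 12 eels, 6 fed gold nanoparticles and 6 kept as controls. Members were contigs of the transcriptome assembly whose name, without its prefix and copy suffix, began with a symbol of the sox, sall, hox, fox, pax, lhx, tbx (with tbr1 and eomes), nkx, gata, irx, meis, zic, pou or bcl11 families, or with six3 or six6. The rule found 125 of 50640 contigs, under 91 labels in 15 families, from 34 fox and 26 sox contigs to 1 hox contig, hoxa5. Of the 88 distinct names, ignoring letter case, 34 equalled a gene symbol in RefSeq's table for the species. A numbered suffix, as in sall1.2.2, marks a copy, and 28 labels had several contigs (62 in all), between which reads of 1 gene could be split. The 4 groups were brain of control eels, brain of gold-fed eels, and the livers of the same animals, with 6 libraries each. The diet ran for 21 days, and each eel gave a brain and a liver. Eels 1 to 6 were controls and eels 7 to 12 received gold. Labels and protocols do not state genotype, age or tank. The tests of diet within a tissue take each eel as a replicate. The main fits that compare the tissues take each library as a replicate and do not use the pairing by eel. If the eels of a diet shared a tank, an effect of diet could not be told apart from one of tank.

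Proteins of these families bind DNA through a shared domain, such as the HMG box of SOX factors, the forkhead of FOX factors or the T-box. GATA, ZIC, SALL and BCL11 factors bind through zinc fingers. HOX, LHX, NKX, IRX, MEIS and POU factors and six3 have a homeodomain. In vertebrate embryos the proteins of these families divide the body into regions and set cell fates. Many stay active in adult tissue, where FOXA and GATA factors maintain liver cells and SOXB, ZIC, PAX and POU factors mark neural cells and brain regions.

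Total counts ranged from 66.0 to 85.3 M (mega) reads for the brains of controls and from 79.3 to 116.2 M for those of gold-fed eels. The corresponding ranges for livers were 59.4 to 89.8 M and 50.3 to 87.6 M. Members took 0.308 to 0.389% of the reads of control brains and 0.258 to 0.404% of those of gold-fed brains. In liver they took 0.0422 to 0.0559% in controls and 0.0461 to 0.0689% in gold-fed eels. Levels are CPM (counts per M counts) with TMM scaling over all 24 libraries. Contig lengths were not used here, so levels are compared between samples and never between genes. The tissue labels matched their markers. Hepatocyte markers summed to between 31375 and 59274 CPM in control livers and to at most 423 CPM in any brain. That highest brain was a control, where the median of control brains was 34.8 CPM. Gold-fed brains reached 109 CPM, with a median of 42.7 CPM. The cause of the high brain values was not tested. Neuron markers summed to between 1217 and 1387 CPM in control brains and to between 20.2 and 28.6 CPM in control livers.

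Several brain libraries stood apart in members that mark brain regions. The brain of control eel 6 was low in factors of the forebrain. The level of lhx6, which in mammals specifies inhibitory neurons of the ventral forebrain, was 0.152 CPM in that library and 2.45 to 6.38 CPM in the other control brains. Its partner lhx8 was at 0.0113 CPM there and at 0.547 to 1.70 CPM in the other controls, and nkx2-1, a ventral forebrain and hypothalamic factor, was at 0.203 CPM against 1.13 to 2.42 CPM. The pallial neuron factor tbr1 was at 1.72 CPM in eel 6 and at 8.24 to 14.96 CPM in the other controls. These 4 contigs were the members of at least 1 CPM on average that lay over 2-fold below the next lowest control brain, 4 of 105 (3.81%), where 0.522% of all such contigs did so. The 2-fold rule was set and this library picked after the data were seen, so no excess is read from these shares.

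The brain of gold-fed eel 12 was low in another set. The neural and eye factor pax6a was at 12.0 CPM in eel 12 and at 33.8 to 58.1 CPM in the other gold-fed brains. Of 102 members of at least 1 CPM on average, 6 lay over 2-fold below the next lowest gold-fed brain in eel 12, among them PAX6, pax6a, six6, zic1.2.2 and zic5.2.2. That is 5.88%, where 0.587% of all such contigs did so. Here too the rule and the library were picked after the data were seen, so no excess is read from these shares. Control eel 1 was the lowest control brain for pax6a, at 23.3 CPM against 40.3 to 47.4 CPM in the others. The hindbrain and spinal cord factor hoxa5 was at 4.35 CPM in the brain of control eel 4 and at 0.154 to 0.932 CPM in the other control brains. These libraries are kept in the results below, and values without them are given for some of the results they move.

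**Figure D1:**
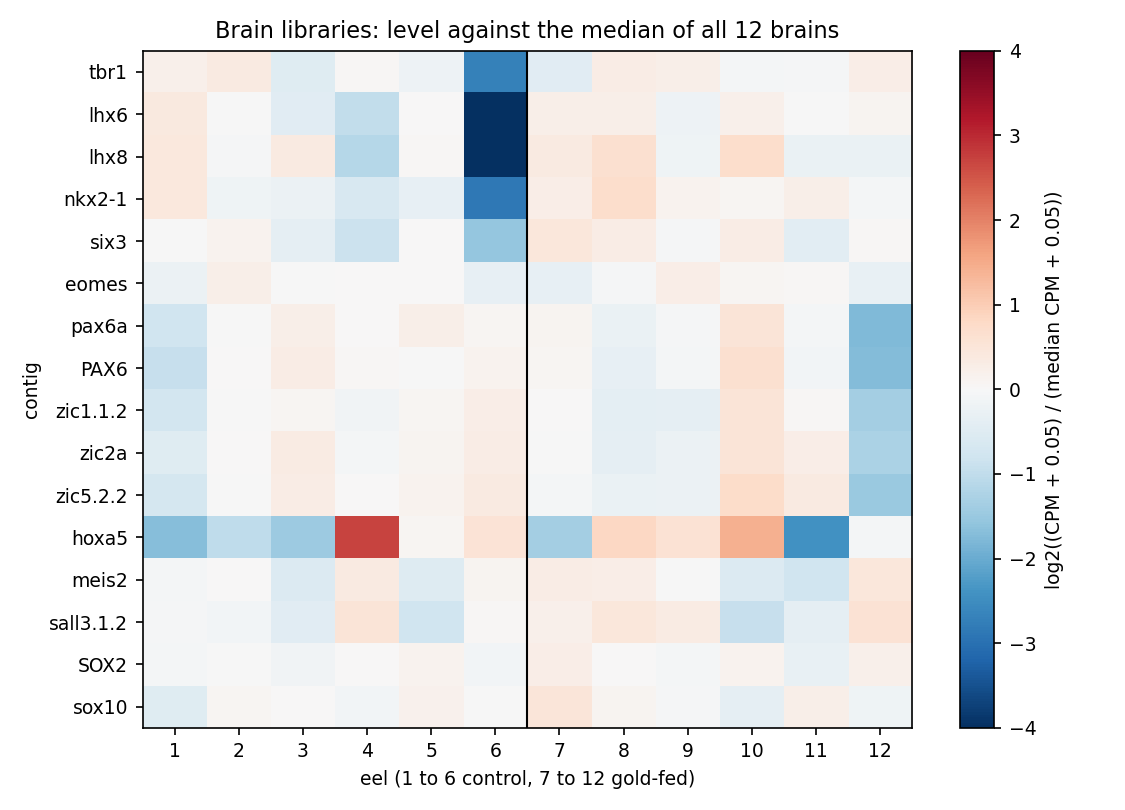
Level of 16 members in the 12 brain libraries, as log2 of CPM plus 0.05 over the median of all 12 brains plus 0.05 (colour; values beyond 4 either way take the end colours). Columns are eels, 1 to 6 control and 7 to 12 gold-fed; the members were chosen after their values were seen. Control eel 6 is low in tbr1, lhx6, lhx8, nkx2-1 and six3, gold-fed eel 12 is low in pax6a, PAX6 and the zic contigs, and control eel 4 is high in hoxa5.

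Most members differed between the tissues of control eels, and most of those were higher in brain. Of 123 contigs tested (lhx8 and six6 did not pass the count filter), 22 were higher in liver and 86 higher in brain at an adjusted p under 0.05 (edgeR's quasi-likelihood test, Benjamini-Hochberg over all contigs). Of all contigs tested, 34.9% were called higher in liver and 40.1% higher in brain. Among members these shares were 17.9% and 69.9%. The median log2 fold change of members, liver over brain, was -2.80, against -0.11 over all contigs, and it was also -2.80 with the contigs of 0 liver reads set at their bound. These were whole tissues, in which fewer cells of a type and less RNA per cell cannot be told apart.

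Scaling mattered for the direction of many differences, and for calls toward liver as large as 2.90 (TBX20). With library totals in place of TMM factors, the median log2 fold change of all contigs moved by -2.15, and 8 members were then called higher in liver and 107 higher in brain. All contigs then split into 10.9% higher in liver and 78.1% higher in brain. The 8 were gata4, gata6, foxa1, foxa2, FOXA2, foxf1, foxl2 and tbx2. The contigs of sox18, sox6, foxk1, foxn2 and foxo1 that were called higher in liver turned negative, and sall1.2.2, foxn3.1.2 and TBX20 stayed positive without a call.

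**Figure D2:**
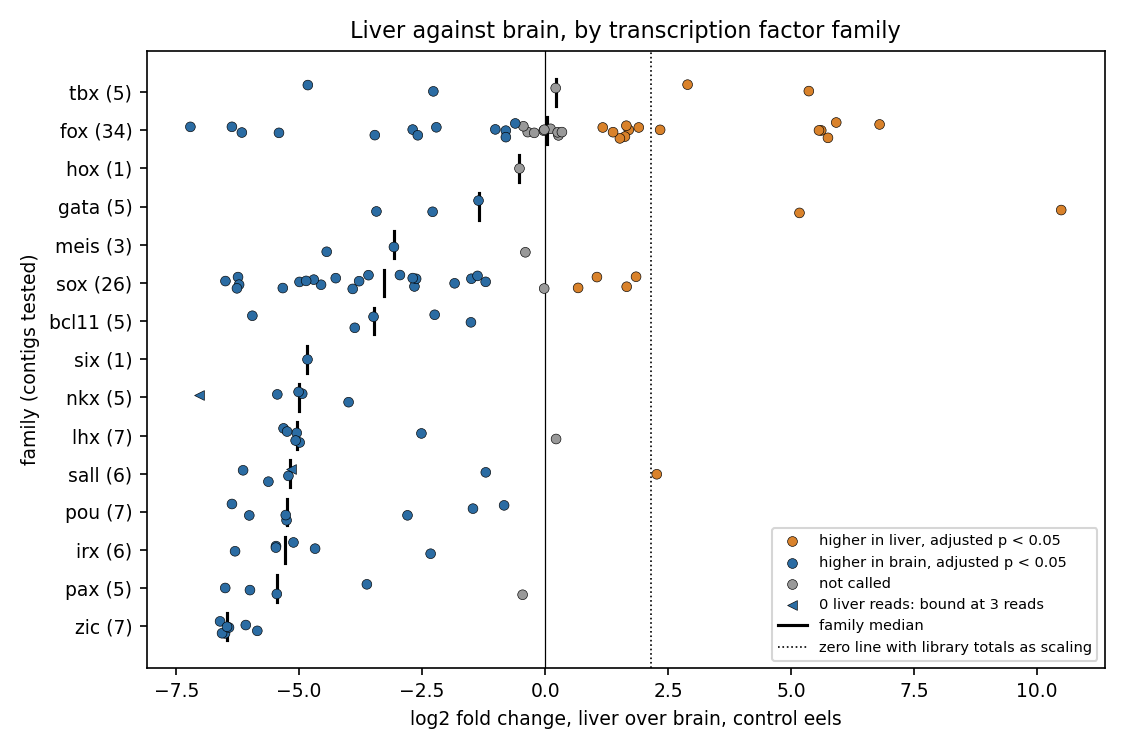
Log2 fold change, liver over brain, of the 123 members tested in 6 control livers and 6 control brains (x axis), by family (y axis, with the number of contigs tested). Points are contigs, coloured by the call at an adjusted p under 0.05; black bars are family medians, triangles are bounds for contigs with 0 liver reads, whose true values lie farther left, and the dotted line is where 0 would lie with library totals. All 7 zic, 6 irx, 7 pou, 5 nkx and 5 bcl11 contigs lie on the brain side, and the contigs farthest to the liver side are of the gata, fox and tbx families.

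The member with the largest log2 fold change toward liver was gata6. The level of this gene, a zinc finger factor of endoderm, heart and liver, was 0.125 to 0.266 CPM in control brains (median 0.161) and 214 to 347 CPM in control livers (median 259). No brain library came near any liver library, and the log2 fold change was 10.49 (SE 0.29, adjusted p 1.6e-12 by edgeR). Its relative gata4 was at 1.40 to 1.79 CPM in brain (median 1.58) and 48.8 to 68.7 CPM in liver (median 56.0), a log2 fold change of 5.17 (SE 0.15, adjusted p 1.8e-12 by edgeR). The other gata contigs went the opposite way. The blood and neuronal factor gata2 had a log2 fold change of -2.29, and gata3.1.2 and gata3.2.2, copies of a factor of T cells and inhibitory neurons, had -3.43 and -1.35.

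Among fox contigs, 13 were higher in liver, 12 higher in brain and 9 passed in neither direction; with library totals the counts were 5, 24 and 5. The 3 foxa contigs belong to the pioneer factors that open chromatin at liver genes. The contig foxa2 was at 0.532 to 1.02 CPM in brain (median 0.840) and 43.6 to 109 CPM in liver (median 93.0), with a log2 fold change of 6.80 (SE 0.29, adjusted p 7.3e-11 by edgeR). A separate contig named FOXA2 had 5.92 and foxa1 had 5.61. The mesenchymal factor foxf1 had a log2 fold change of 5.75 and foxl2, known for its part in the ovary, had 5.57. On the brain side, the forebrain factor foxd1 was at 2.43 to 6.59 CPM in brain and at 0 to 0.0982 CPM in liver (-7.21, SE 0.57). The diencephalic and midbrain factor foxb1 had -6.37. The foxo contigs, forkhead factors of the insulin response found in many tissues, had smaller differences, from -0.61 to 1.38 in foxo1, foxo3 and foxo4, while foxo6, known from neurons, had -5.41. With library totals foxo1.1.2 (-2.58), foxo1.2.2 (-0.75), foxo3.1.2 (-1.89) and foxo4 (-1.78) were called higher in brain.

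T-box contigs differed in both directions. The repressor tbx2 was at 2.51 to 4.05 CPM in brain (median 3.15) and 105 to 151 CPM in liver (median 135), a log2 fold change of 5.36 (SE 0.17, adjusted p 4.3e-12 by edgeR). TBX20 was also higher in liver (2.90), at 0.651 CPM there, but was not called with library totals (0.75, adjusted p 0.16 by edgeR). A contig named TBX2 in capitals had a difference of 0.21 and was not called, but with library totals it was higher in brain (-1.96, adjusted p 4.1e-04 by edgeR). The pallial factors were higher in brain. The level of tbr1 was 1.72 to 14.96 CPM in brain (median 11.0) and 0.117 to 0.834 CPM in liver (-4.82, SE 0.55). The level of eomes, which in mammals marks forebrain precursors and cytotoxic lymphocytes, was 21.2 to 31.4 CPM in brain and 2.90 to 8.503 CPM in liver (-2.27, SE 0.24).

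Of the 26 sox contigs, 21 were higher in brain and 4 in liver (0 with library totals, where 25 were higher in brain). The SOXB factors of neural progenitors lay among the farthest to the brain side. SOX3 was at 12.1 to 16.6 CPM in brain (median 15.6) and 0.0877 to 0.278 CPM in liver (median 0.195), a log2 fold change of -6.26 (SE 0.23, adjusted p 1.4e-11 by edgeR). SOX2 had -6.22, SOX1B -4.99, SOX14 -4.70, and the copies sox21.1.2 and sox21.2.2 -6.50 and -5.33. SOXE factors, known from glia, neural crest and bile ducts, were also higher in brain. The oligodendrocyte factor sox10 had 2 reads in all control livers together and 813 in control brains, a pooled ratio of 83.7 with an exact counting interval of 23.1 to 692. The sox8 contigs had -3.59, -4.86 and -3.78, and sox9.1.2, sox9.2.2 and SOX9A had -2.95, -4.26 and -2.69. The endothelial factor sox18 was the sox gene highest in liver by fold. Its copy sox18.1.2 was at 0.787 to 1.51 CPM in brain and 2.34 to 5.28 CPM in liver (1.85, SE 0.23), but -0.32 with library totals.

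All 7 zic contigs, factors of the dorsal neural tube and cerebellum, were higher in brain, within a narrow range of log2 fold changes from -6.61 to -5.85. The level of zic2a was 129 to 230 CPM in brain (median 191) and 1.23 to 2.54 CPM in liver (median 1.89; SE of the log2 fold change 0.23, adjusted p 9.7e-12 by edgeR). Of 5 pax contigs, 4 were higher in brain. The level of pax6a was 23.3 to 47.4 CPM in brain and 0.314 to 0.874 CPM in liver (-6.50, SE 0.30). A shorter-named contig, PAX6, had 3 reads in all control livers and 1060 in the brains, a pooled ratio of 72.8 with an exact counting interval of 24.8 to 353. The B cell and midbrain factor pax5 was low in both tissues, with means of 0.210 CPM in brain and 0.153 CPM in liver, and was not called. With library totals it was called higher in brain (-2.60, adjusted p 1.3e-05 by edgeR).

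All 7 pou contigs were higher in brain. The neuronal factor pou3f4 was at 24.0 to 29.4 CPM in brain (median 26.1) and 0.205 to 0.468 CPM in liver (-6.37, SE 0.19, adjusted p 3.1e-12 by edgeR). The related pou3f2.1.2 had -6.01. The differences of pou2f1b (-1.47) and pou6f1 (-0.83), both found in many tissues, were smaller. LIM homeodomain factors, which set neuron types, were higher in brain in 6 of 7 contigs tested. LHX9.2.2 was at 8.04 to 10.2 CPM in brain and 0.117 to 0.412 CPM in liver (-5.25, SE 0.26), and lhx2b had -5.32. The other copy, LHX9.1.2, had means of 8.59 CPM in brain and 9.97 CPM in liver and was not called (0.22). With library totals it was called higher in brain (-1.95, adjusted p 6.2e-08 by edgeR).

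The 6 irx contigs were all higher in brain, led by irx1.1.2 (4.64 to 7.74 CPM in brain, 0 to 0.159 CPM in liver, -6.30, SE 0.40), and irx5a had -5.47. All 5 nkx contigs were higher in brain. The ventral neural tube factor nkx6-1 had 1915 reads in control brains and 0 in control livers, so that brain was at least 131-fold higher against a floor of 3 reads over the 6 livers. Its relative nkx6-2, also known from oligodendrocytes, had -5.44. The eye and forebrain factor six3 was at 2.89 to 9.50 CPM in brain and 0.0794 to 0.418 CPM in liver (-4.84, SE 0.43).

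Zinc finger repressors of the sall and bcl11 families were mostly higher in brain as well. The copies sall3.1.2 and sall3.2.2 had log2 fold changes of -6.14 and -5.22, and sall2.1.2 had 521 reads in brain and 0 in liver, at least 35.8-fold higher in brain. The neuronal and T cell factor bcl11ba was at 25.7 to 42.3 CPM in brain and 1.504 to 3.495 CPM in liver (-3.87, SE 0.21). Of the meis factors, TALE homeodomain partners of HOX proteins, meis2 had -3.07 and meis3 -4.44. The third, meis1, was at 7.54 ± 1.52 CPM in brain and 5.68 ± 1.33 CPM in liver (SD, n = 6 each) and was not called (-0.40, adjusted p 0.0672 by edgeR). It was called with eel as a block (adjusted p 0.0410), by DESeq2 (adjusted p 0.0234) and by edgeR with library totals (-2.57, adjusted p 1.7e-08). The level of hoxa5 was 0.154 to 4.35 CPM in brain, highest in control eel 4, with the other control brains at up to 0.932 CPM. Its tissue difference was not called (-0.53, and 0.04 with eel as a block). With library totals it was called higher in brain (-2.62, adjusted p 0.0096 by edgeR).

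Copies of 2 labels were called in opposite directions. The contig sall1.2.2 of the zinc finger factor sall1, known from kidney development and in mammals from microglia, was at 5.201 to 7.23 CPM in brain (median 6.10) and 25.3 to 38.2 CPM in liver (median 28.1). Its log2 fold change was 2.27 (SE 0.14), and 0.12 without a call under library totals. The other copy, sall1.1.2, was at 4.78 to 10.8 CPM in brain and 2.62 to 3.24 CPM in liver (-1.21, SE 0.19). The forkhead contig foxn3.1.2 was at 5.04 to 6.34 CPM in brain and 23.6 to 40.1 CPM in liver (2.34, SE 0.16; 0.18 under library totals), while foxn3.2.2 was at 7.67 to 13.9 CPM in brain and 1.0997 to 2.44 CPM in liver (-2.59, SE 0.22). Summed over copies, sall1 had 1.33 and foxn3 1.00.

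Gold-fed eels, which share no library with the controls, gave a like split between their tissues. Of 123 members tested (pax5 and six6 were not), 24 were higher in liver and 86 in brain, where 33.3% and 39.7% of all contigs were. These counts were 23 and 85 with eel as a block, and 10 and 106 with library totals. The shares over all contigs are from the fit with TMM and no block, so these counts are not read against them. In control eels, library totals gave 10.9% of all contigs higher in liver and 78.1% higher in brain. The leading members had similar values in both diets. The log2 fold change of gata6 was 10.49 in control eels and 10.37 in gold-fed eels, that of tbx2 5.36 and 5.28, and that of zic2a -6.61 and -6.51. It was 6.80 and 7.83 in foxa2, -2.27 and -4.09 in eomes, and -2.69 and -0.91 in SOX9A. The copy sall1.1.2 was not called in gold-fed eels (-0.50, adjusted p 0.12 by edgeR), but it was without eel 10 (-0.82, adjusted p 0.0098; 4.1e-06 to 0.34 over alternatives, the lowest with library totals).

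Factors that work beside these families were read from 3 lists. Earlier results of these data were known when the lists were drawn up, and the liver and neural lists hold regulators named for those tissues. Over every contig tested in control eels, TMM gave calls of 34.9% toward liver and 40.1% toward brain. Library totals gave 10.9% toward liver and 78.1% toward brain. Because of how the lists were chosen, their counts are not read against these shares. Of 22 contigs of liver regulators outside the families, 22 were higher in control liver than in brain, among them nr1h4.3.3 of the bile acid receptor (9.50) and hnf4g (6.94); with library totals 16 were higher in liver and 3 in brain. Of 82 contigs of neural regulators, 67 were higher in brain, such as the neuronal factors st18 (-6.09), myt1.2.3 (-5.14) and MAB21L1 (-6.38). Only NR2F2 (3.48), a nuclear receptor of veins and neurons, and NFIX.1.3 (0.72, and -1.42 with library totals) were higher in liver with TMM. With library totals 80 of the 82 were higher in brain and 1 in liver. Of 37 contigs of partners and cofactors, 23 were higher in brain, among them dach2.2.3 (-3.14) and ssbp2 (-2.37). The GATA cofactor zfpm1 (2.94) and the corepressors TLE4.2.2 (1.05) and TLE1 (0.60) were higher in liver. The last 2 turned to -1.08 and -1.55 with library totals, by which 36 of the 37 were higher in brain and 1 in liver.

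The series asked how dietary gold alters the 2 tissues, and the comparisons of diet reuse the libraries of the comparisons of tissue. In liver, 84 of the 125 members passed the count filter, and 0 were called between gold-fed and control eels by edgeR, as were 0% of all contigs. The other 41 reached at most 1.03 CPM in any liver (pou4f1). By limma-voom 0 members were called, and by DESeq2 4 were (SOX9A, eomes, sall1.1.2 and sall1.2.2), where 0.697% of all contigs were. At an unadjusted p under 0.05, 9 members were higher and 3 lower in gold-fed livers. Together these 12 were 14.3% of the members tested, and of all contigs 4.41% were higher and 4% lower by that measure. Members were chosen with earlier results of these data known, in which sall1 and SOX9A contigs were among the liver contigs of smallest p. Shares of members in liver are therefore not read against those of all contigs. Positive values numbered 57 and negative ones 27, with a median log2 fold change of 0.14 against 0.02 over all contigs; with library totals they numbered 65 and 19.

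**Figure D3:**
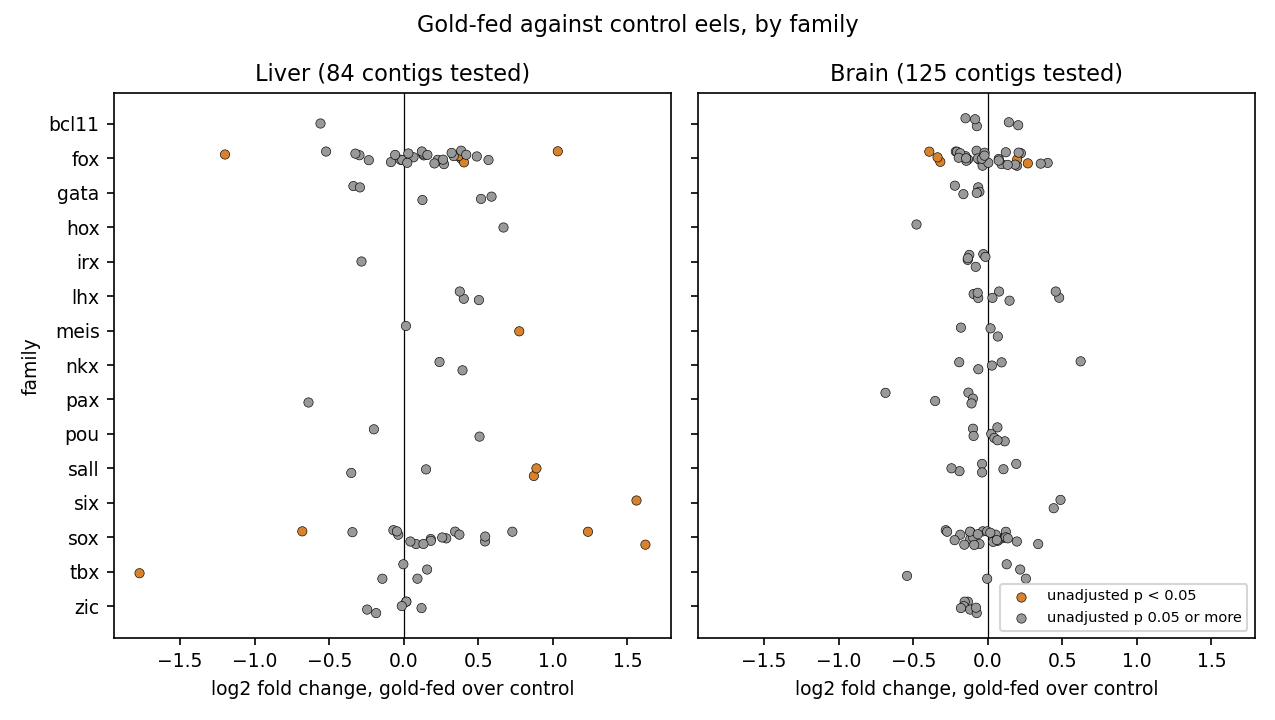
Log2 fold change, gold-fed over control, of members in liver (left) and brain (right), by family (y axis). Each point is a contig from a fit of 6 gold-fed and 6 control libraries; orange points had an unadjusted p under 0.05, and no point passed the adjusted threshold. The liver values run from -1.77 (eomes) to 1.62 (SOX9A) and the brain values from -0.69 (pax5) to 0.62 (nkx2-1).

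Both sall1 copies and SOX9A had the smallest p among members with higher values in gold-fed livers. The level of sall1.2.2 was 25.3 to 38.2 CPM in control livers (median 28.1) and 37.0 to 65.1 CPM in gold-fed livers (median 55.9). The highest control, eel 3, lay just above the lowest gold-fed liver, eel 7. The log2 fold change was 0.89 (SE 0.17, p 1.2e-04, adjusted p 0.23 by edgeR; adjusted p 3.9e-04 by DESeq2, range over alternatives 3.9e-04 to 0.41). The level of sall1.1.2 was 2.62 to 3.24 CPM in controls (median 3.00) and 3.83 to 8.77 CPM in gold-fed livers (median 5.28), without overlap. Its log2 fold change was 0.87 (SE 0.21, p 0.0012, adjusted p 0.32 by edgeR; 0.032 to 0.55 over alternatives). Summed over both copies, sall1 had 0.88 (SE 0.16, adjusted p 0.16 by edgeR).

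SOX9A, named for a factor that marks bile duct cells in mammalian liver, was at 0.834 to 1.93 CPM in control livers (median 1.45) and 3.04 to 8.98 CPM in gold-fed livers (median 3.54). The groups did not overlap, and gold-fed eel 10 was far above the rest, at 8.98 CPM where the other gold-fed livers reached 4.88 CPM. The log2 fold change was 1.62 (SE 0.32, p 1.7e-04, adjusted p 0.23 by edgeR; 0.0010 to 0.41 over alternatives), and 1.29 without eel 10. The values of the 2 contigs labelled sox9 were -0.05 in sox9.1.2 and 0.73 in sox9.2.2, and 0.11 for their sum. Leaving out single eels moved sox9.2.2 to between 0.46 (without gold-fed eel 9) and 1.34 (without control eel 6). The related sox8.1.3 was at 0.159 to 1.26 CPM in controls and 1.29 to 3.72 CPM in gold-fed livers (1.24, SE 0.40, p 0.0088), again without overlap, and the 3 sox8 contigs summed had 0.51.

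Other members with an unadjusted p under 0.05 and higher values in gold-fed livers were meis1, 2 foxk1 copies, six3 and foxa2. The level of meis1 was 4.06 to 7.88 CPM in controls (median 5.70) and 6.42 to 11.9 CPM in gold-fed livers (median 9.55). Control eel 3 lay above gold-fed eel 11, and the log2 fold change was 0.77 (SE 0.20, p 0.0016, adjusted p 0.35 by edgeR). The forkhead contig foxk1.2.3, of a factor known in mammals as a regulator of glycolysis and autophagy genes, was at 56.2 to 71.3 CPM in controls and 71.4 to 111 CPM in gold-fed livers (0.40, SE 0.15, p 0.021), without overlap. Its other copies had 0.39 and 0.37. The level of foxa2 was 43.6 to 109 CPM in controls (median 93.0) and 41.3 to 318 CPM in gold-fed livers (median 179), so the groups overlapped widely (1.03, SE 0.41, p 0.026). The separate contig named FOXA2 had -0.02 (SE 0.20). The factor six3 was near the detection limit, with 2 to 14 reads in control livers and 4 to 70 in gold-fed livers (1.56, SE 0.60, p 0.022; 1.00 without gold-fed eel 8).

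**Figure D4:**
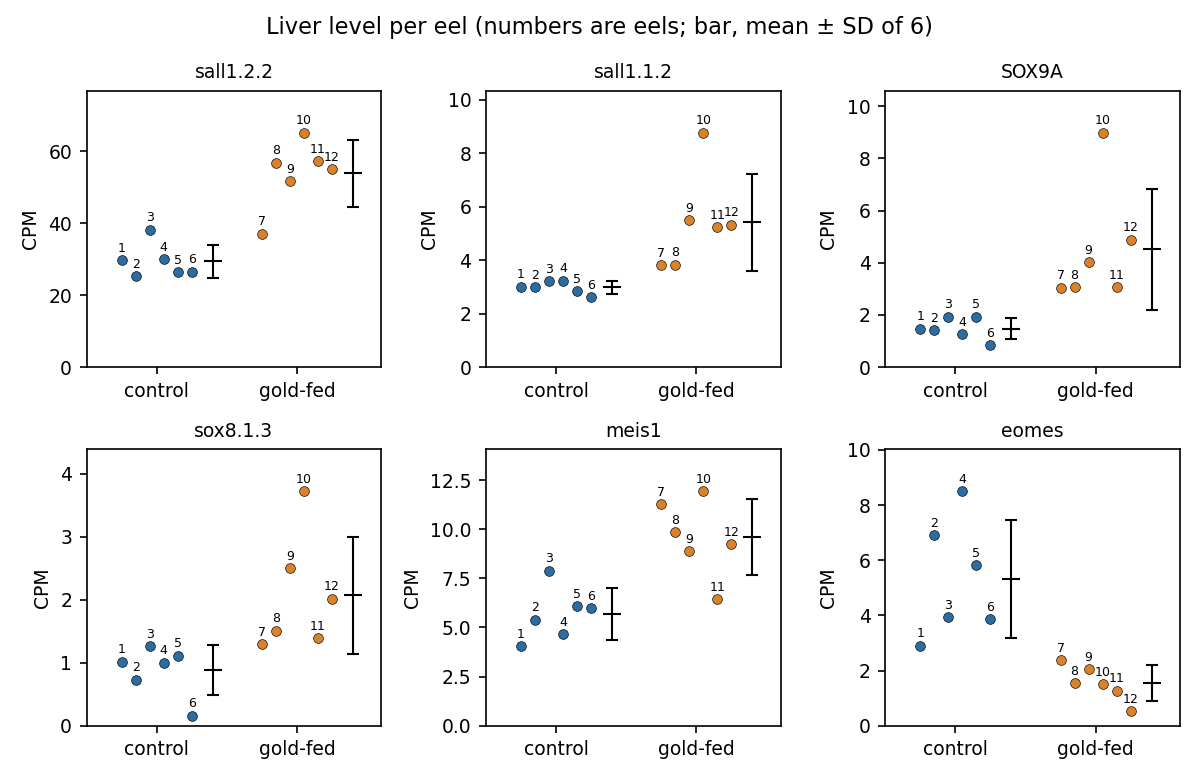
Liver level (CPM, y axes from 0) of 6 members in each control and gold-fed eel; numbers are eels, and the bars show mean ± SD of 6 livers. The groups do not overlap in sall1.1.2, SOX9A, sox8.1.3 and eomes, and they overlap in sall1.2.2 and meis1; gold-fed eel 10 is the highest in the 5 contigs that are higher in gold-fed livers.

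The member with the largest lower value was eomes. It was at 2.90 to 8.503 CPM in control livers (median 4.87) and 0.530 to 2.37 CPM in gold-fed livers (median 1.52). All 6 gold-fed livers lay below all 6 controls, and the log2 fold change was -1.77 (SE 0.35, p 2.1e-04, adjusted p 0.23 by edgeR; 8.6e-04 to 0.41 over alternatives). The endothelial sox18.1.2 was at 2.34 to 5.28 CPM in controls and 1.37 to 3.47 CPM in gold-fed livers (-0.68, SE 0.26, p 0.019), and its other copy had -0.34. The mesenchymal foxf2 was at 0.245 to 2.34 CPM in controls and 0.189 to 0.591 CPM in gold-fed livers (-1.20, SE 0.54, p 0.043), but -0.65 without control eel 2, which was the highest. Next by p were bcl11ba (-0.56), pax6a (-0.64), gata6 (-0.29), foxk2.2.2 (-0.30) and foxa1 (-0.23), none with a p under 0.05. The other foxk2 copy, foxk2.1.2, had 0.27. The value of pax6a was -0.36 without control eel 6. The value of gata4 rested on 1 library. It was 0.52, with gold-fed eel 8 at 225 CPM and the other gold-fed livers at 46.4 to 56.5 CPM, and -0.10 without that eel.

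Groups did not overlap in 4 members with higher and 1 with lower values in gold-fed livers, of 84 tested. Of all contigs tested, 0.196% were higher and 0.29% lower without overlap. Members were chosen with earlier results known, so these shares are not read against each other either. A member outside the test was similar in this respect. The neuronal and lymphoid factor bcl11aa.1.2 had 4 to 14 reads in each control liver and 0 to 3 in each gold-fed liver.

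Markers of other cell types were read in the same livers, and the ranges of their summed levels overlapped between the diets. Leukocyte markers, of which 8 of 9 names were measured in 14 contigs, were lower in gold-fed livers in 13 contigs and higher in 1 (median log2 fold change -0.80). Their summed level was 99.2 to 202 CPM in control livers and 58.6 to 143 CPM in gold-fed livers. Of 12 names of biliary, pancreatic and gut markers, 3 were measured. The epithelial marker epcam was at 2.02 to 5.70 CPM in control livers and 3.90 to 17.5 CPM in gold-fed livers, vil1 was at 24.6 to 109 and 43.9 to 120 CPM, and gcg had 0 reads in control livers and up to 36 in a gold-fed liver. Their summed level was 29.5 to 114 CPM in controls and 61.4 to 127 CPM in gold-fed livers. Erythrocyte markers were lower in 9 of 9 contigs (median -0.42), at summed levels of 1780 to 7440 CPM in controls and 703 to 3867 CPM in gold-fed livers. Endothelial markers were higher in 4 of 10 contigs and lower in 6 (median -0.09), at summed levels of 185 to 489 CPM in controls and 241 to 510 CPM in gold-fed livers. The part of these cell types in the values of eomes, bcl11aa.1.2, SOX9A and sox18 was not tested.

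Among the listed partners, 0 of 36 contigs were called in liver by edgeR, and 2 had an unadjusted p under 0.05. Of 22 liver regulators 0 were called, with 4 at an unadjusted p under 0.05, all higher. The hepatobiliary factor onecut2 was at 8.70 to 18.01 CPM in controls and 18.4 to 27.5 CPM in gold-fed livers (0.68, p 0.0049). The stress-responsive cebpd was at 24.3 to 237 CPM in controls and 51.9 to 500 CPM in gold-fed livers (1.42, p 0.033). Of 52 neural regulators tested in liver 0 were called, and 3 had an unadjusted p under 0.05. Of all contigs tested in liver, 4.41% were higher and 4% lower at an unadjusted p under 0.05. The lists were chosen with earlier results of these data known, so no excess is read from these counts.

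In brain all 125 members were tested, and 0 were called between gold-fed and control eels by edgeR, limma-voom or DESeq2, where 0.00201% of all contigs were called by edgeR. At an unadjusted p under 0.05, 2 members were higher and 3 lower in gold-fed brains. Of all contigs 3.37% were higher and 4.39% lower by that measure, and the 5 members were 4% of those tested. The groups overlapped in every member. Of all contigs tested, 0.508% did not overlap, a share so small that 0 of 125 does not set the members apart. Values were small, with a median log2 fold change of -0.04 and a range from -0.69 to 0.62.

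The 5 brain contigs with an unadjusted p under 0.05 were copies of foxk1 and foxn2, and foxo4. All are forkhead contigs, but 34 of the 125 members are, and no family pattern is read from so few. The copies foxk1.1.3 and foxk1.2.3 were higher. The first was at 6.89 to 8.65 CPM in control brains (median 8.01) and 8.03 to 12.0 CPM in gold-fed brains (median 9.61; 0.27, SE 0.11, p 0.027, adjusted p 0.62 by edgeR). The second had 0.20 (p 0.035), and the 3 foxk1 contigs summed had 0.21 in brain and 0.39 in liver. The insulin-responsive factor foxo4 was at 1.27 to 1.96 CPM in controls and 0.927 to 1.42 CPM in gold-fed brains (-0.39, SE 0.15, p 0.023), and foxn2.4.6 (-0.34, p 0.016) and foxn2.2.6 (-0.32, p 0.049) were also lower. The other 4 of the 6 foxn2 copies had a p above 0.05. Next by p among lower values were sox11.1.2 (-0.28), nkx2-5.2.2 (-0.19), sox5.2.2 (-0.27), foxk2.2.2 (-0.19) and pax5 (-0.69). Among higher values these were six3 (0.44), sox18.2.2 (0.34), sox4.2.2 (0.20), sox4.1.2 (0.12), nkx2-1 (0.62) and foxn2.6.6 (0.21). Of the other copies, sox11.2.2 had -0.03, nkx2-5.1.2 0.09, sox5.1.2 -0.0039, foxk2.1.2 -0.02 and sox18.1.2 -0.18. The 4 contigs with the smallest p in liver had brain values of -0.04 (sall1.2.2), -0.22 (SOX9A), -0.0042 (eomes) and 0.11 (sall1.1.2).

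Single brains weighed on the regional factors. Without control eel 6, the value of nkx2-1 went from 0.62 to 0.40, of lhx6 from 0.48 to 0.23 and of tbr1 from 0.26 to 0.04. All 7 zic contigs had negative values in gold-fed brains, with a family median of -0.13, but without gold-fed eel 12 only 2 were negative and 5 positive, and the median was 0.02. All 5 pax contigs were negative as well, and 3 of 5 were without that eel. The 5 gata and 6 irx contigs had negative values over all eels, with medians of -0.07 and -0.10, none of them called. Over all 18 settings, alternatives and single eels left out included, up to 2 contigs of each family were positive, with medians from -0.18 to -0.0081 in gata and from -0.16 to -0.04 in irx. Leukocyte markers were higher in gold-fed brains in 14 of 14 contigs (median 0.44; summed level 61.8 to 152 CPM in controls, 42.9 to 211 CPM in gold-fed brains), erythrocyte markers lower in 9 of 9 (224 to 560 and 175 to 719 CPM) and astroglial markers lower in 10 of 11 (1073 to 1699 and 1136 to 1648 CPM). Their part in the brain values was not tested.

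Whether the gold response differed between tissues was tested in 1 fit of all 24 libraries. By edgeR 0 of 125 members were called, where 0.00595% of all contigs were, and by limma-voom 0. By DESeq2 4 were called, SOX9A, sall1.2.2, eomes and bcl11aa.1.2, where 0.271% of all contigs were. At an unadjusted p under 0.05, 11 members had a liver response above and 8 below that of brain (15.2% together), where 3.27% and 3.5% of all contigs did. This fit shares its livers and brains with the comparisons above, and the limit on the choice of members holds here too. Like the DESeq2 and limma-voom fits, it did not use the pairing of brain and liver by eel. With eel as a block, edgeR called 0 members, and 13 had an unadjusted p under 0.05. The shares of all contigs above are from the fit without a block, so these 13 are not read against them. Library totals moved the median of all contigs by 0.12 here.

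The smallest p belonged to eomes, SOX9A, bcl11aa.1.2 and sall1.2.2. In SOX9A the liver response exceeded that of brain by 1.81 on the log2 scale (SE 0.39, p 1.2e-04, adjusted p 0.21 by edgeR; 0.0085 to 0.50 over alternatives). Its brain levels were 7.14 to 16.9 CPM in controls and 6.19 to 10.8 CPM in gold-fed eels. In sall1.2.2 the difference was 0.89 (SE 0.20, adjusted p 0.24 by edgeR), in meis1 0.72 and in meis3 1.40, the last with at most 0.289 CPM in any liver. In eomes it was -1.80 (SE 0.37, p 5.8e-05, adjusted p 0.18 by edgeR; 0.0041 to 0.34 over alternatives). Its brain levels were 21.2 to 31.4 CPM in controls and 21.4 to 31.9 CPM in gold-fed eels, with medians of 26.6 and 26.5. The values of bcl11aa.1.2 (-2.93), bcl11a (2.73), pax3 (-2.57) and sox8.2.3 (-1.24) rested on few liver reads, and bcl11ba had -0.74.

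Control eels differed from each other most in regional brain factors. Among the 104 members with a mean of at least 1 CPM and 10 reads in the lowest control brain, the median ratio of highest to lowest level was 1.62. The ratios of lhx6 (41.8), hoxa5 (28.2), nkx2-1 (11.9) and tbr1 (8.68) were the largest, and all but hoxa5 were lowest in eel 6. In control livers the median ratio over 53 members was 1.94. The largest were those of irx5 (7.25, at 0.477 to 3.46 CPM), gata3.2.2 (4.28), sox5.2.2 (3.90), eomes (2.93) and foxn2.6.6 (2.88), each highest in eel 4 except gata3.2.2, which was highest in eel 3.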

How the data were processed

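RNA sequencing of brain and liver from 12 eels gave 24 libraries, 6 in each of 4 groups taken from the sample titles. The deposited values are raw read counts per contig, with no normalization by the authors, as the whole numbers with differing totals show. Per the submitters' processing notes, BWA 0.7.12 and SAMtools 1.1 were used. How contigs were assembled and annotated, and whether counting used strand, is not stated in the sources used here. All 24 columns matched a sample, and 0 belonged to none. Libraries of a group were not duplicates (lowest chi-square per degree of freedom 66.7). Members and gene lists were chosen with earlier results of these data known, and the rule for libraries over 2-fold apart after the data were seen.

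Of 50640 contigs, those that passed filterByExpr, 41793 to 50455 by comparison, were tested with edgeR 4.0.16 in R 4.3.3. Settings were the quasi-likelihood F test, TMM, two-sided, Benjamini-Hochberg, threshold 0.05. Steps were tested on simulated data. Alternatives were DESeq2 1.42.0, limma-voom (limma 3.58.1), library totals, other count filters, copies summed by label, each eel left out, and eel as a block. Brain and liver of a number come from the same eel per the labels, and their deviations from group means of log2(CPM + 0.5) correlated with r of 0.309 to 0.533, above 0.1 in all 12. Counting intervals are exact, cover counting error only, and floors are 3 reads over a group.

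Named members were, for gold, the 8 of smallest p in each direction (5 for the difference between tissues), for tissues up to 2 per family and direction with the largest change at 1 CPM or more, labels with copies in both directions, and all sall1 and sox9 contigs. Others were named after their values were seen. Some members and listed genes that the rule names are not reported here. No sequences or coordinates were used.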

Additional observations from a re-analysis of the deposited data

Results flagged for a closer look

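In groups of 6 eels, a library stood apart where its gap to the nearest other exceeded the 95% critical value of Dixon's test. This held in 19 of the 163 groups of named members examined (11.7%). For normal values chance gives about 1 in 20, but some of these members were named because a library stood apart and some groups lie near 0 CPM, so the share is not read against that rate.

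In liver, gold-fed eel 10 was high in SOX9A (8.98 CPM, others up to 4.88) and in sall1.1.2 (8.77 CPM, others up to 5.49), and control eel 3 was high in sall1.2.2 (38.2 CPM, others up to 29.9). Control eel 6 was the highest control liver in pax6a (0.874 CPM), PAX6 (0.119 CPM, the others at 0), pax3 (0.238 CPM) and sox9.2.2 (1.15 CPM). Control eel 2 was high in foxb1 (0.418 CPM), control eel 4 in irx5 (3.46 CPM, others up to 1.17), and control eel 1 had 0 CPM of meis3.

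In brain, control eel 1 was low in pax6a (23.3 CPM) and PAX6 (0.550 CPM) and high in SOX9A (16.9 CPM, others up to 9.58) and sall3.2.2 (38.1 CPM, others up to 24.4). Control eel 4 was high in hoxa5 (4.35 CPM) and sox9.1.2 (20.04 CPM, others up to 15.9). Gold-fed eel 12 was high in sox9.2.2 (10.1 CPM) and bcl11ba (51.5 CPM, others up to 40.5), and gold-fed eel 8 was low in pax3 (0.381 CPM). The causes were not tested.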

How the results depend on the processing

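Counts of members called were stable between tissues except under library totals, where 8 (control) and 10 (gold-fed) were higher in liver. DESeq2 called 4 members in liver (3 higher, 1 lower) and 4 for the difference between tissues (2 above, 2 below). Leaving out 1 eel gave 107 to 109 calls in control eels (21 to 22 higher in liver, 85 to 88 in brain) and 107 to 110 in gold-fed eels (23 to 24 and 84 to 87). It gave 0 to 0 for gold in either tissue and for the difference between tissues, in either direction. With eel as a replicate block there were 108 calls in control eels (21 and 87), 108 in gold-fed eels (23 and 85) and 0 for the difference; meis1 and, in gold-fed eels, sox5.1.2 were gained, and sox6.1.2, LHX9.1.2, foxn2.5.6 and foxo1.1.2 were lost. For gold within a tissue no paired analysis was possible because the diets share no eel.

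Values near 0 changed sign. In liver, sox9.1.2 (-0.05) was 0.0052 under library totals, and 0.046, 0.017, 0.032 and 0.064 without control eels 1 and 3 and gold-fed eels 8 and 10, in a range from -0.21 to 0.064 over single eels left out. In brain, sall1.1.2 was -0.056 without gold-fed eel 12 (range -0.056 to 0.27), sall1.2.2 was 0.020 without control eel 1 and 0.037 without gold-fed eel 10 (range -0.12 to 0.037), and SOX9A was 0.020 without control eel 1 (range -0.31 to 0.020). The brain value of sox9.2.2 was -0.012 under library totals and -0.0086, -0.026 and -0.070 without control eels 2 and 6 and gold-fed eel 12 (range -0.070 to 0.076). Under library totals sox18.1.2 and sox18.2.2 were -0.32 and -0.52 in control eels and -0.70 and -1.10 in gold-fed eels. By limma-voom lhx6 was not called between control tissues (adjusted p 0.20). Causes were not tested. The 41 members below the count filter in liver have no value for gold there.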
